A study of Mus musculus with 60 samples.

Results

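The hippocampus and the prefrontal cortex of wild-type mice were compared across all protein-coding genes in 20 RNA-seq libraries, 10 of each region, out of 60 libraries in the series. The members were chosen by label alone, as the libraries of genotype Adgrl3 +/+ (WT) with the region hippocampus or prefrontal cortex. The other 40 libraries hold WT striatum and the same 3 regions of Adgrl3 -/- (KO) mice, whose altered gene encodes the adhesion receptor latrophilin-3 (Lphn3). The mice numbered 12 per genotype and were at postnatal days 65 to 76, per the labels. Their brains were frozen, and each region was microdissected and homogenised, so a library holds RNA of every cell type in the piece of tissue. The sources used here do not give the animals' sex, their strain, the altered part of Adgrl3 or any treatment. The Y-linked genes Ddx3y, Uty, Kdm5d and Eif2s3y summed to 94.2 to 119 CPM in all 20 wild-type libraries. The 20 libraries of the KO hippocampus and KO prefrontal cortex were used as a second set, with no library in common, for the same comparison.

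The hippocampus is a folded 3-layered cortex of granule cells in the dentate gyrus and pyramidal cells in fields CA1 to CA3, and it is known for its part in spatial and episodic memory. The prefrontal cortex is a layered neocortex, whose upper layers project mainly within the cortex and whose deep layers project to the brainstem, striatum and thalamus, and it is known for its part in planning and attention. Both are built mainly of glutamatergic projection neurons and inhibitory interneurons that use GABA, with astrocytes, oligodendrocytes, microglia and vessels around them. The choroid plexus, which secretes cerebrospinal fluid, and the thalamus lie against the hippocampus, while the olfactory bulb and the striatum lie beside the prefrontal cortex.

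Levels are given in CPM, the usual unit of read counts scaled to library size, with TMM factors, and the counted features are whole genes, introns included. A difference is the log2 of the hippocampus level minus the log2 of the prefrontal cortex level, with its standard error (SE), so positive values are higher in hippocampus. A gene passed when edgeR's quasi-likelihood F test gave a Benjamini-Hochberg adjusted p below 0.05. No label states that the 10 libraries of a region come from separate animals, so p-values measure the spread between these libraries. Among the 186 named genes that passed, SEs ran from 0.03 to 0.93 (median 0.10) and the highest adjusted p was 0.0223, which holds for those given by fold alone.

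The 4 genes used to check the regions were each far apart between them. C1ql2 (ENSMUSG00000036907.9; GRCm38 chromosome 1, 120340582 to 120343174, plus strand) encodes a secreted C1q-like protein of the mossy fibre synapses that dentate granule cells form. Its lowest, median and highest levels were 52.5, 68.4 and 102 CPM in hippocampus and 0.558, 1.01 and 1.36 CPM in prefrontal cortex. It was 73.7-fold higher in hippocampus, a difference of 6.20 (SE 0.16; edgeR adjusted p = 1.11e-18). Fibcd1 (ENSMUSG00000026841.7; GRCm38 chromosome 2, 31813290 to 31846005, minus strand), a transmembrane chitin-binding receptor that marks CA1 pyramidal cells, lay between 98.2 and 183 CPM (median 157) in hippocampus and between 8.56 and 11.2 CPM (median 9.52) in prefrontal cortex. That was a 15.6-fold difference (log2 3.96, SE 0.11, edgeR adjusted p = 3.42e-18). For both genes every hippocampus library was above every prefrontal cortex library.

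Lamp5 (ENSMUSG00000027270.14; GRCm38 chromosome 2, 136052239 to 136069917, plus strand), a membrane protein of the LAMP family found in upper-layer cortical neurons and some interneurons, went the other way. It lay between 33.03 and 57.2 CPM (median 39.1) in hippocampus and between 202 and 279.7 CPM (median 236) in prefrontal cortex, 5.87-fold higher in the latter (log2 difference -2.55, SE 0.08, edgeR adjusted p = 3.38e-17). Cux2 (ENSMUSG00000042589.18; GRCm38 chromosome 5, 121856366 to 122050102, minus strand), a homeobox factor of cortical layers 2 to 4, lay between 20.2 and 35.2 CPM (median 29.7) in hippocampus and between 96.2 and 136 CPM (median 120.0) in prefrontal cortex. It was 4.09-fold higher in prefrontal cortex (log2 difference -2.03, SE 0.08, edgeR adjusted p = 6.10e-16). The plot of the 4 markers by library shows no overlap between the regions and the same direction in all 10 pairs of equally numbered libraries. Each of the 20 libraries thus carried the markers of its labelled region.

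**Figure D1:**
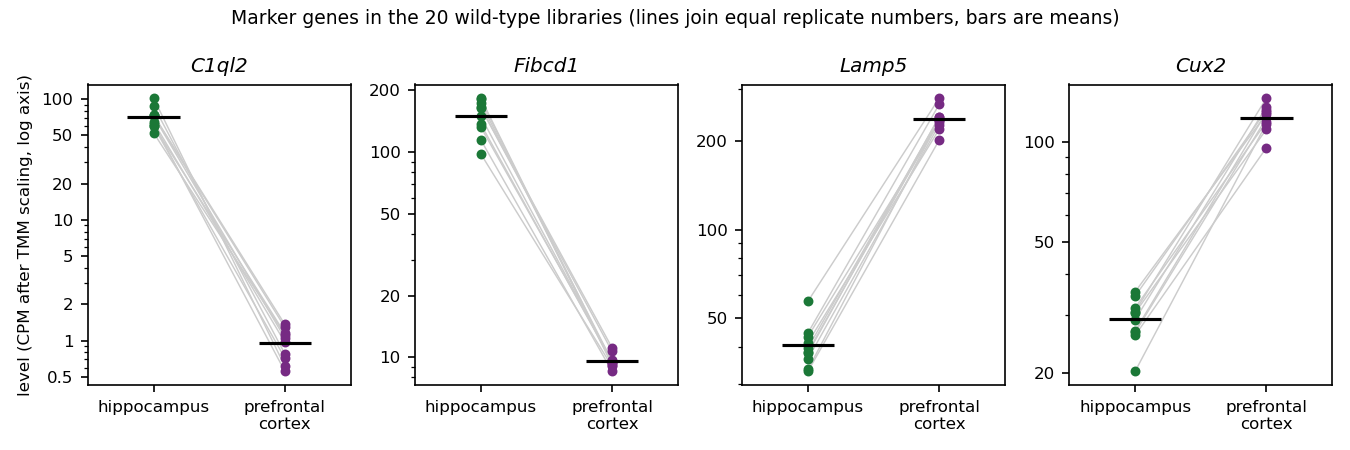
Levels of C1ql2, Fibcd1, Lamp5 and Cux2 (CPM after TMM scaling, log axis) in the 10 wild-type hippocampus and 10 wild-type prefrontal cortex libraries; each point is a library, grey lines join libraries with the same replicate number and bars are means. C1ql2 and Fibcd1 were higher in every hippocampus library, and Lamp5 and Cux2 in every prefrontal cortex library.

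Library totals ran from 38985577 to 50641041 counted reads in hippocampus and from 39927732 to 50566119 in prefrontal cortex. Some libraries stood apart in markers of neighbouring tissue, as the plot of 4 summed lists by library shows. Hippocampus replicates 6 and 7 held little choroid plexus RNA, with a summed level of 198 and 283 CPM over that list, against 1163 to 4254 CPM in the other 8. Most of these low sums was 1 member, Enpp2, at 138 and 197 CPM. Enpp2 also stood at 197 to 245 CPM in prefrontal cortex, where the list summed to 212 to 257 CPM. Hippocampus replicates 1, 8 and 9 were high in striatal markers (496, 769 and 472 CPM, against 263 to 355 CPM in the other 7). Prefrontal cortex replicates 4 and 7 were low in olfactory bulb genes (29.5 and 21.96 CPM, against 71.3 to 182 CPM). Replicates 1, 2 and 10 were lowest in immediate early genes in both regions. Prefrontal cortex replicate 6 was the outlying library for 10 of the named genes.

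**Figure D2:**
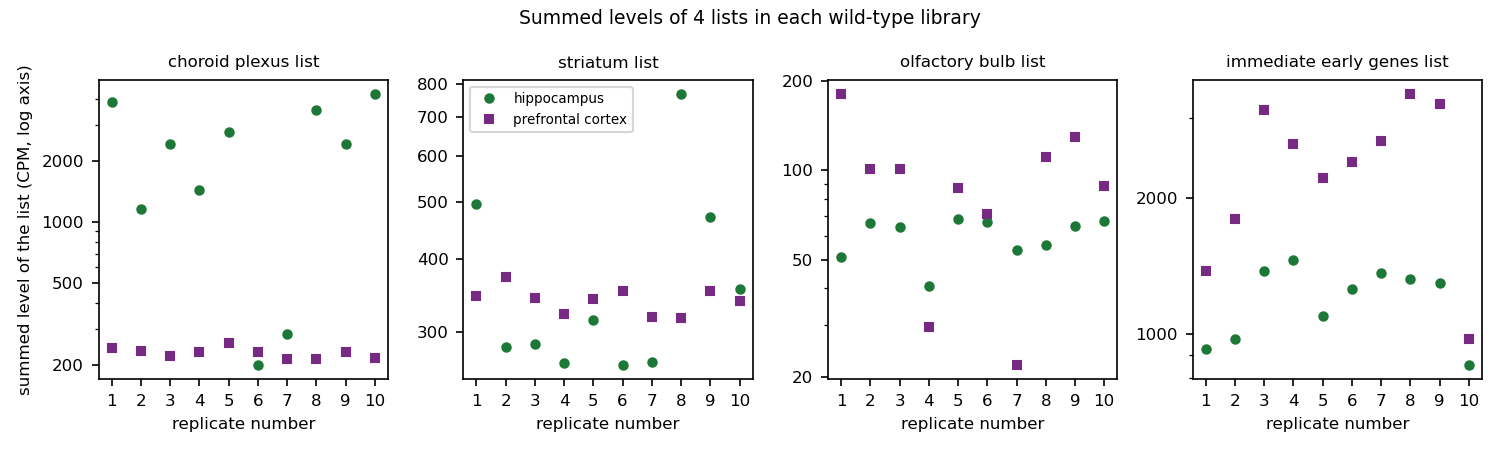
Summed level (CPM, log axis) of the choroid plexus, striatum, olfactory bulb and immediate early gene lists in each library, by replicate number; circles are hippocampus and squares prefrontal cortex. Hippocampus replicates 6 and 7 lie near the prefrontal cortex for the summed choroid plexus list, and in all of these libraries most of that sum is Enpp2. Prefrontal cortex replicates 4 and 7 lie below the hippocampus for olfactory bulb genes.

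Most genes differed between the regions, nearly equally in each direction. Of 15556 genes tested, 5467 (35.1%) passed as higher in hippocampus and 5158 (33.2%) as higher in prefrontal cortex, together 10625 (68.3%). Differences of at least 2-fold were fewer, with 842 genes (5.41%) higher in hippocampus and 645 (4.15%) higher in prefrontal cortex, together 1487 (9.56%). For 4412 genes (28.4%) the libraries of the 2 regions did not overlap. The median difference over all genes was 0.01, and the counts of each gene list below are read against the 35.1% and 33.2% of all genes.

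**Figure D3:**
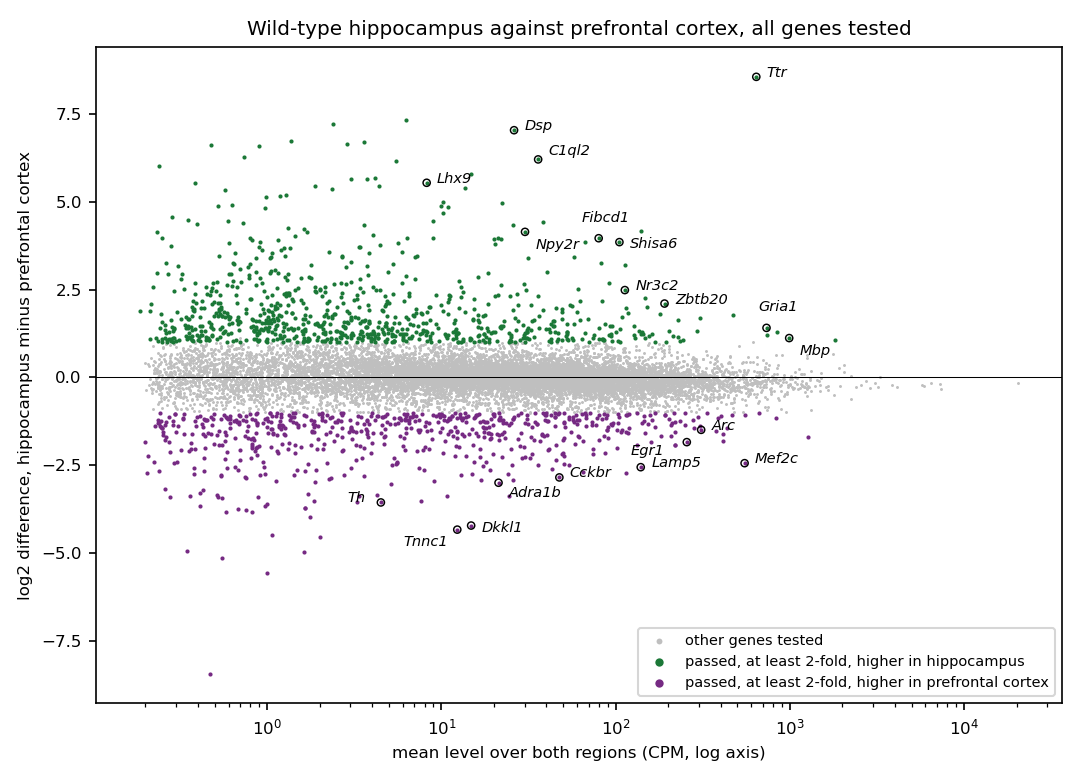
Difference between the regions (log2, hippocampus minus prefrontal cortex) against the mean level over both (CPM, log axis) for all 15556 genes tested; green and purple points passed at 2-fold or more, and circled points are named. The 842 green genes reach up to Ttr at 8.55. Tnnc1 lies at -4.33, and the purple points below it are genes of lower level.

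The rule for named genes took the 12 genes with the largest difference in each direction among those with a mean of at least 5 CPM in the higher region and no overlap of libraries. Of the 12 in hippocampus, 7 were on the choroid plexus list. They were Ttr, Tmem72, Kcne2, Otx2, Clic6, Folr1 and Cldn2, and they are described with the neighbouring tissues. The other 5 were Dsp, C1ql2, Lhx9, Krt2 and Syna. Krt2, a keratin of epithelial cells, lay between 5.54 and 9.74 CPM (median 7.19) in hippocampus and between 0.0235 and 0.275 CPM (median 0.147) in prefrontal cortex (log2 difference 5.66, SE 0.18). Syna, which encodes the retrovirus-derived envelope protein syncytin-A of the placenta, lay between 4.65 and 7.70 CPM (median 5.67) in hippocampus and between 0.0429 and 0.213 CPM (median 0.104) in prefrontal cortex (log2 difference 5.64, SE 0.18). Neither gene overlapped between regions in any library.

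In prefrontal cortex the largest difference under this rule was that of Tnnc1, the slow and cardiac form of troponin C. It lay between 0.724 and 1.45 CPM (median 1.18) in hippocampus and between 17.6 and 27.98 CPM (median 23.7) in prefrontal cortex, 20.1-fold higher in the latter (log2 difference -4.33, SE 0.11, edgeR adjusted p = 2.68e-19). Dkkl1, a secreted protein related to the Wnt inhibitors of the Dickkopf family, followed and lay between 0.764 and 2.37 CPM (median 1.32) in hippocampus and between 24.7 and 34.6 CPM (median 27.4) in prefrontal cortex (log2 difference -4.21, SE 0.16). Rasgef1c, an exchange factor for Ras GTPases, was 10.3-fold higher in prefrontal cortex, where it lay between 38.5 and 54.1 CPM (median 43.7). Adra1b, the alpha-1B adrenergic receptor, was 7.97-fold higher (31.7 to 40.9 CPM, median 38.1, in prefrontal cortex against 3.62 to 7.21 CPM, median 4.60, in hippocampus). Hkdc1, which holds a hexokinase domain, was 7.54-fold higher, and the predicted gene Gm11549 was 7.50-fold higher. The remaining genes of the 12 were Tgm3 (-3.54), Cd6 (-3.38), Igfn1 (-3.37), Ovol2 (-3.03) and Lemd1 (-2.96), all as log2 differences, and Th, which stands on the olfactory bulb list and is described there.

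Genes of the hippocampal subfields were not uniformly higher in hippocampus. On the list for dentate granule cells, 9 of 15 measured genes (60%) passed as higher in hippocampus, 2 as lower, and 4 did not pass (median difference 0.63, against 0.01 over all genes). In bulk tissue, more cells of a type and more RNA per cell cannot be told apart. Dsp, which encodes the desmosome protein desmoplakin, lay between 35.9 and 71.05 CPM (median 53.8) in hippocampus and between 0.0709 and 0.915 CPM (median 0.315) in prefrontal cortex (log2 difference 7.04, SE 0.22, edgeR adjusted p = 1.05e-16). Prox1, the homeobox factor that maintains granule cell identity, lay between 79.8 and 151 CPM (median 104) in hippocampus and between 8.88 and 11.8 CPM (median 9.76) in prefrontal cortex, a 10.7-fold difference (log2 3.42, SE 0.10). Lct, the gene of the digestive enzyme lactase, was 31.1-fold higher in hippocampus, and Tdo2, which starts the breakdown of tryptophan, 13.00-fold higher. None of these 4 overlapped between the regions in any library. Calb1, the calcium buffer calbindin that granule cells and cortical neurons share, was lower in hippocampus by a small margin (log2 difference -0.20, SE 0.07, edgeR adjusted p = 0.0155), and so was Pdzd2 (-0.31, SE 0.10). Both overlapped between the regions.

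CA1 genes split evenly, with 4 of 9 higher and 4 lower in hippocampus (median difference 0.03). Gpr161, an orphan receptor of primary cilia, lay between 62.4 and 79.8 CPM (median 71.1) in hippocampus and between 7.52 and 9.71 CPM (median 9.02) in prefrontal cortex, with an adjusted p of 4.18e-22 in edgeR (log2 difference 3.00, SE 0.05). Lefty1, an inhibitor of Nodal signalling, was 13.1-fold higher in hippocampus at low levels (4.71 to 8.71 CPM, median 6.34). Mpped1 was 1.49-fold higher in prefrontal cortex and Wfs1, the endoplasmic reticulum protein wolframin, 1.29-fold higher. The Wfs1 libraries overlapped, and its adjusted p was 0.0158 in edgeR and 0.127 without replicates 1, 2 and 10.

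On the list for CA2 and CA3 pyramidal cells, 10 of 13 genes (76.9%) were higher in hippocampus and 1 was lower (median difference 0.93). Amigo2, an adhesion molecule of these fields, lay between 15.4 and 29.6 CPM (median 24.4) in hippocampus and between 7.45 and 10.9 CPM (median 8.46) in prefrontal cortex (log2 difference 1.43, SE 0.10). Rgs14, a regulator of G protein signalling that marks CA2, was 1.90-fold higher in hippocampus (81.6 to 109.7 CPM, median 94.6, against 48.3 to 53.6 CPM, median 50.3). Ntf3, which encodes neurotrophin-3, was 6.94-fold higher and Iyd, an enzyme that recovers iodide in the thyroid, 17.5-fold higher, the latter at 1.31 to 5.32 CPM (median 2.91) in hippocampus. The exception was Coch, the gene of cochlin, an extracellular protein of the inner ear, which was 4.83-fold higher in prefrontal cortex (32.8 to 40.7 CPM, median 36.98, against 3.99 to 10.7 CPM, median 7.97, in hippocampus). Genes of mossy cells and Cajal-Retzius cells, the latter being early-born reelin-producing neurons, were higher in hippocampus for 7 of 9 members. Trp73, a p53-family factor of Cajal-Retzius cells, was 5.24-fold higher and Nhlh2, a basic helix-loop-helix factor, 10.6-fold higher, with no overlap for either. Calb2, the calretinin gene of mossy cells and also of olfactory bulb and interneurons, differed less (log2 0.63, SE 0.20, edgeR adjusted p = 0.0102) and did not pass in a fit of all 60 libraries (adjusted p = 0.0547).

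The transcription factors that pattern the hippocampus in development were in part still apart in the adult. On that list 8 of 15 were higher in hippocampus and 5 lower. Zbtb20, a zinc finger repressor needed for CA1 and dentate fate, lay between 269 and 340.0 CPM (median 313) in hippocampus and between 66.5 and 80.1 CPM (median 70.9) in prefrontal cortex (log2 difference 2.10, SE 0.04, edgeR adjusted p = 3.77e-21). Lhx9, a LIM homeobox factor of the embryonic hippocampal margin and also of the thalamus, was 46.5-fold higher in hippocampus (12.00 to 20.6 CPM, median 15.7, against 0.236 to 0.587 CPM, median 0.321). Nr2f2, the orphan receptor COUP-TFII, was 3.46-fold higher, and Nfib, a nuclear factor I protein, 1.79-fold higher. Emx1, a homeobox factor of the whole dorsal forebrain, was 1.56-fold higher in prefrontal cortex.

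Upper-layer genes were mainly higher in prefrontal cortex, whereas layer 5 genes went both ways. On the list for layers 2 to 4, 11 of 15 (73.3%) were higher in prefrontal cortex and 3 in hippocampus (median difference -0.69). Stard8, which holds a lipid-transfer domain, lay between 42.9 and 54.2 CPM (median 51.5) in prefrontal cortex and between 9.11 and 13.8 CPM (median 10.3) in hippocampus (log2 difference -2.25, SE 0.06). Rspo1, a secreted activator of Wnt signalling, was 4.44-fold higher in prefrontal cortex, Rorb, the nuclear receptor of layer 4, 1.92-fold higher, and Rasgrf2, an exchange factor for Ras, 1.70-fold higher. None of the 4 overlapped between the regions. Against the rest of its list, Mdga1, a membrane protein that binds neuroligins, was 3.84-fold higher in hippocampus, and Scnn1a, a subunit of the epithelial sodium channel, 4.53-fold higher.

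Of 14 layer 5 genes, 7 were higher in hippocampus and 3 in prefrontal cortex (median difference 0.28). With the replicate number as a block the counts were 6 and 5 (median 0.23). Their summed level was 781 to 955 CPM in hippocampus and 642 to 707 CPM in prefrontal cortex, without overlap. Deptor, an inhibitor of mTOR, lay between 41.97 and 60.7 CPM (median 53.7) in prefrontal cortex and between 12.2 and 19.2 CPM (median 15.4) in hippocampus (log2 difference -1.79, SE 0.09). Ldb2, a cofactor of LIM domain proteins, was 2.12-fold and Fezf2, the factor that specifies subcerebral projection neurons, 1.26-fold higher in prefrontal cortex, the Fezf2 libraries overlapping. In the other direction, Bcl11b, also called CTIP2, a factor of layer 5 and of CA1 and dentate neurons, was 2.32-fold higher in hippocampus, and Crym, which binds thyroid hormone, 2.38-fold higher. Both weigh heavily in the summed level. Bcl11b lay at 111 to 145 CPM in hippocampus and 48.1 to 67.9 CPM in prefrontal cortex. Crym lay at 155 to 231 CPM in hippocampus and 69.5 to 114 CPM in prefrontal cortex. Etv1 did not pass (log2 difference 0.02, SE 0.07). Of 16 layer 6 and subplate genes, 7 were higher in prefrontal cortex, among them Tbr1, a T-box factor of layer 6, at 3.19-fold (115 to 143 CPM, median 130.3, against 29.6 to 57.7 CPM, median 39.7, in hippocampus) and Foxp2 at 2.16-fold with overlap. The 3 that were higher in hippocampus included Hs3st4, a heparan sulfate sulfotransferase, at 2.39-fold, and Nr4a2, which is also an activity-regulated gene.

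Genes common to excitatory neurons were higher in prefrontal cortex for 8 of 14 and in hippocampus for 5. The MADS-box factor Mef2c, which controls synapse number, lay between 749.5 and 1027 CPM (median 934) in prefrontal cortex and between 153 and 191 CPM (median 171) in hippocampus, a 5.42-fold difference (log2 -2.44, SE 0.06, edgeR adjusted p = 2.61e-19). Slc30a3, the transporter that loads zinc into synaptic vesicles, was 2.08-fold higher in prefrontal cortex, and Slc17a7, the vesicular glutamate transporter VGLUT1, 1.30-fold higher. The neurogenic factors Neurod2 and Neurod6 were 1.75-fold and 1.71-fold higher in hippocampus, and Nptx1, a pentraxin that gathers AMPA receptors, 1.85-fold higher. Camk2a, the alpha subunit of the calcium/calmodulin-dependent kinase II, did not pass, with a difference of 0.00 (SE 0.05).

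Of 24 genes of GABA neurons, 11 were higher in prefrontal cortex, 5 in hippocampus and 8 did not pass. Genes that all GABA neurons share differed little. Gad1, which makes GABA, did not pass and differed by 0.03 (SE 0.04, edgeR adjusted p = 0.424), and Slc32a1, which loads it into vesicles, by 0.00 (SE 0.05, edgeR adjusted p = 0.985). Gad2, the second gene for the enzyme that makes GABA, passed as higher in hippocampus by 0.12 (SE 0.05, edgeR adjusted p = 0.0223), with overlap at 153 to 214 CPM (median 180.3) against 151 to 179.8 CPM (median 165). Its call was lost without replicate 8 (0.09, adjusted p = 0.0665), without replicate 9 (0.10, adjusted p = 0.0664), and without hippocampus replicates 1, 8 and 9, the libraries high in striatal markers (0.06, adjusted p = 0.200). Among the subtype genes, Vip, a peptide of interneurons that inhibit other interneurons, lay between 42.6 and 62.2 CPM (median 49.4) in prefrontal cortex and between 13.9 and 20.1 CPM (median 14.8) in hippocampus, 3.24-fold higher in the former. Neuropeptide Y (Npy) was 2.03-fold and cholecystokinin (Cck) 1.86-fold higher in prefrontal cortex without overlap, whereas Pvalb at 1.37-fold and Sst at 1.20-fold overlapped. Nos1, the neuronal nitric oxide synthase, was 2.47-fold higher in hippocampus (126 to 166 CPM, median 143, against 46.2 to 74.4 CPM, median 59.1). Kit, a receptor tyrosine kinase, was 2.31-fold higher there, and it also marks other cell classes.

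The dentate gyrus keeps a zone in which granule neurons are born in the adult. Of 20 genes of that process, 14 (70%) were higher in hippocampus and 4 in prefrontal cortex (median difference 0.73). Igfbpl1, a secreted protein of new neurons, lay between 2.35 and 4.85 CPM (median 3.23) in hippocampus and between 0.0259 and 0.681 CPM (median 0.317) in prefrontal cortex (log2 difference 3.20, SE 0.25). Draxin, an axon repellent, was 4.89-fold higher in hippocampus, and the proliferation genes Top2a and Mki67 2.57-fold and 2.04-fold higher, all without overlap, at medians of 1.62, 2.08 and 2.19 CPM in hippocampus. Sox11, a factor of immature neurons, was 1.93-fold higher. Dcx, a microtubule protein of migrating neurons, was lower in hippocampus with overlap (log2 difference -0.52, SE 0.08). Eomes, a T-box factor of intermediate progenitors and of olfactory bulb neurons, was lower as well and is given with the bulb genes.

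Immediate early genes, which neurons switch on within minutes of activity, were higher in prefrontal cortex as a group. On that list 16 of 21 (76.2%) were higher in prefrontal cortex and 3 in hippocampus (median difference -1.41). Fos, which encodes a subunit of the AP-1 factor, had lowest, median and highest levels of 4.25, 19.9 and 31.9 CPM in hippocampus and 10.9, 80.3 and 121 CPM in prefrontal cortex. The difference was -1.92 (SE 0.42, edgeR adjusted p = 4.74e-04). The libraries overlapped, but within equal replicate numbers prefrontal cortex was higher in 10 of 10 pairs. Npas4, a neuron-specific activity factor, lay between 3.93 and 16.7 CPM (median 11.6) in hippocampus and between 10.3 and 85.4 CPM (median 59.5) in prefrontal cortex, higher in 10 of 10 pairs (log2 difference -2.30, SE 0.33). Egr1, a zinc finger factor, lay between 53.8 and 165 CPM (median 117) in hippocampus and between 168 and 603 CPM (median 423) in prefrontal cortex and did not overlap. Arc, a capsid-like protein of dendrites, lay between 57.3 and 268 CPM (median 179) in hippocampus and between 51.4 and 737 CPM (median 554) in prefrontal cortex and was higher in prefrontal cortex in 9 of 10 pairs. The exception was replicate 10, with 57.3 CPM in hippocampus and 51.4 CPM in prefrontal cortex.

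Egr2, of the same family as Egr1, was 6.78-fold and Egr3 2.68-fold higher in prefrontal cortex. Nptx2, a secreted pentraxin, was 3.30-fold and Homer1, a scaffold of metabotropic receptors, 1.99-fold higher there. Egr1, Egr3, Nptx2 and Homer1 were the members without overlap on this side. Of the 16 genes that passed as higher in prefrontal cortex, 13 were so in all 10 pairs. The 3 that went the other way were Nr4a2, an orphan nuclear receptor (32.03 to 76.1 CPM, median 52.96, in hippocampus, 6.34 to 26.7 CPM, median 10.04, in prefrontal cortex, log2 difference 2.05, SE 0.24), its relative Nr4a3 (2.13-fold) and Jun, the partner of Fos in AP-1 (1.99-fold). None of these 3 overlapped between the regions. Bdnf, the neurotrophin (-0.04, SE 0.11), and Fosl2 (0.17, SE 0.19) did not pass. Replicates 1, 2 and 10 were the 3 lowest libraries for 11 of the 16 genes in hippocampus and for 11 in prefrontal cortex. Without these replicates, 15 members were higher in prefrontal cortex and 3 in hippocampus (median -1.42). With hippocampus replicates 6 and 7 as the sole hippocampus libraries, 5 were higher in prefrontal cortex at a median of -1.24. The sources used here say nothing of what the animals experienced before death, and its part in these values was not tested.

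The promoters of 3 members that were higher in prefrontal cortex, and of Nr4a2, which was higher in hippocampus, are shown because these members differed in opposite directions. Each is the 250 bases before the start site, 5′ to 3′ in the direction of the gene, from RefSeq on GRCm38.p6. Capitals mark TGACG on either strand, the core of the cyclic AMP response element that CREB binds.
Fos, chr12:85473640-85473889 (plus strand): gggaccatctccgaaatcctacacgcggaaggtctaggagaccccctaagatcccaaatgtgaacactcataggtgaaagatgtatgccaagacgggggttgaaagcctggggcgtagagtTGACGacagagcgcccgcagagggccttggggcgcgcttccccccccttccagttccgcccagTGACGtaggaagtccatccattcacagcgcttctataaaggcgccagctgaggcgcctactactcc
Npas4, chr19:4989972-4990221 (minus strand): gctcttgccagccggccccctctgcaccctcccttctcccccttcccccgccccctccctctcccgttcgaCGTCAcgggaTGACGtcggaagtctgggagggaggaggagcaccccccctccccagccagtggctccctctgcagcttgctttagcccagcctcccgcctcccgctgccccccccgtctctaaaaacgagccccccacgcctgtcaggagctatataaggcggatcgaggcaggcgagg
Nr4a1, chr15:101266596-101266845 (plus strand): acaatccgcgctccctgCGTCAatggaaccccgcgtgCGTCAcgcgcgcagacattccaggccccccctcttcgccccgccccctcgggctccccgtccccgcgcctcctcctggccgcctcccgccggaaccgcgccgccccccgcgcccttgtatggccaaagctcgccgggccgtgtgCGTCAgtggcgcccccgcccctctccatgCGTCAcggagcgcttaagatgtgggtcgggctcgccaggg
Nr4a2, chr2:57124004-57124253 (minus strand): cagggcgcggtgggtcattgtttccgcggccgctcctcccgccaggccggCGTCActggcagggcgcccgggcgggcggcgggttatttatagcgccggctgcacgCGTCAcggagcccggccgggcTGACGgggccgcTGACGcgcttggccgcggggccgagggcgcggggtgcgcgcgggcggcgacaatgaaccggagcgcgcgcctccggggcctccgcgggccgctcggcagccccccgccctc
The 5 letters occurred 2 times in Fos, 2 times in Npas4, 4 times in Nr4a1 and 4 times in Nr4a2. Of the 21 listed genes, 16 had a promoter in the RefSeq table and 11 of these held the letters, against 17.9% of all 32536 distinct promoter windows of 250 bases. The start sites used for Homer1, Jund and Fosl2 lie 4122, 1210 and 671 bases from the start of the counted gene. For Btg2, Junb and Jund the bases after the start site were not found in the gene's transcripts. These windows may therefore not be the promoters in use. The full palindrome TGACGTCA, which overlaps the shorter motif, occurred in 2 of the 16 and in 1.56% of all windows. No CArG box, the site of serum response factor, was found in the 16 windows (1.48% of all). Only exact letters within these 250 bases were searched, so sites further upstream would be missed. At a share of 1.48%, absence from 16 windows says little about these genes. The marked TGACG stretches are matches of letters, and they were present in genes that were higher in prefrontal cortex and in Nr4a2 alike. Nr4a1, the third member of the family, lay between 24.9 and 80.6 CPM (median 64.2) in hippocampus and between 42.01 and 268 CPM (median 182) in prefrontal cortex (log2 difference -1.55, SE 0.30, edgeR adjusted p = 1.59e-04).

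**Figure D4:**
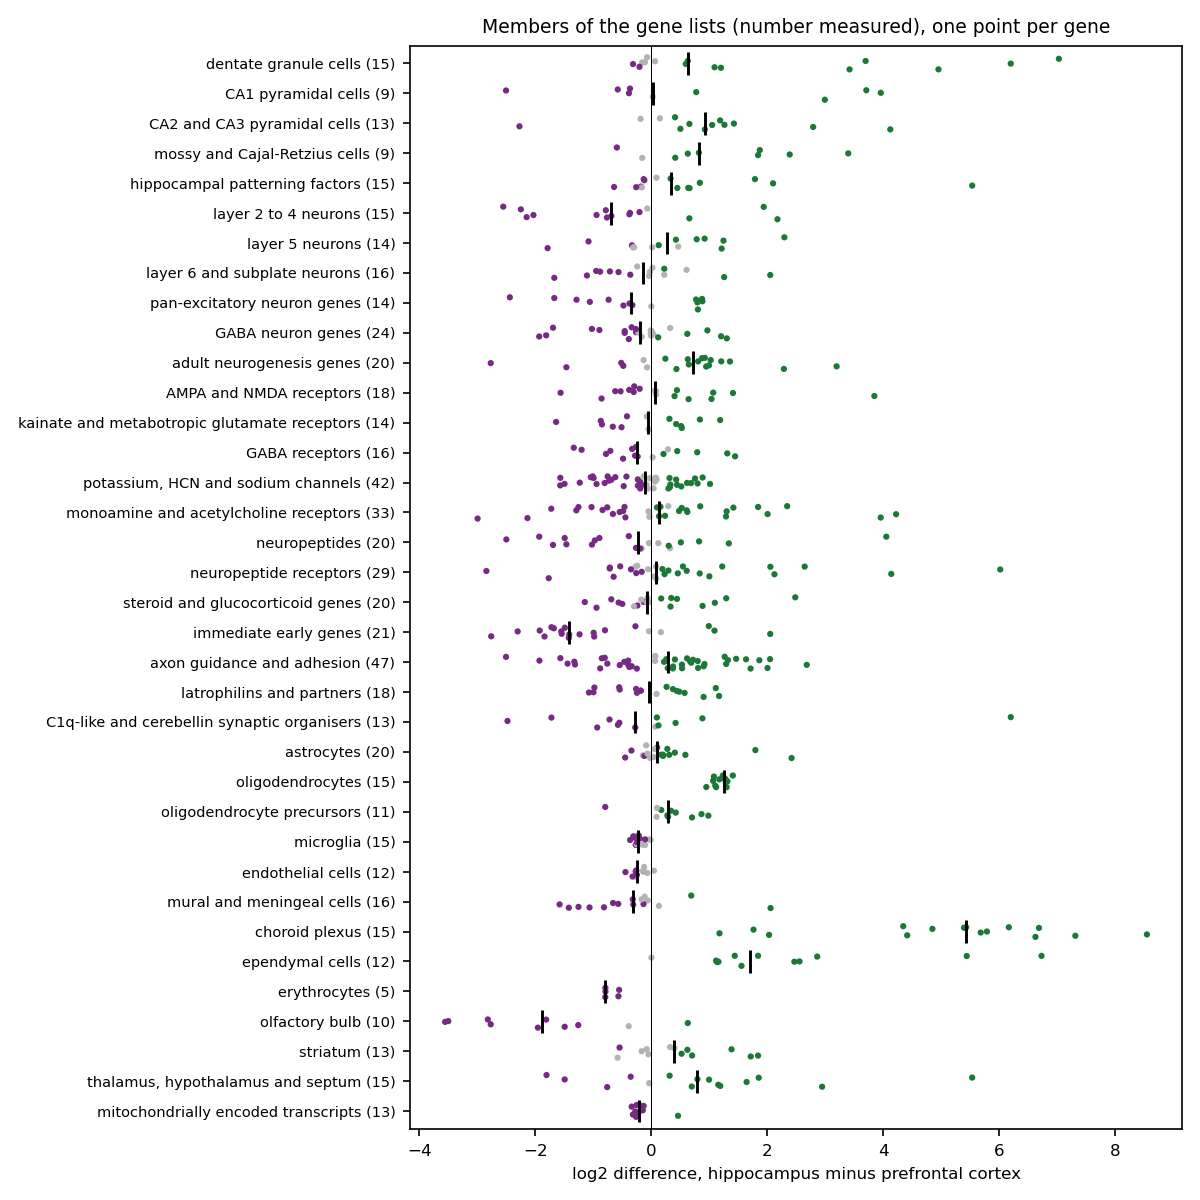
Difference between the regions (log2, hippocampus minus prefrontal cortex) for each measured member of the 36 gene lists; green and purple points passed as higher in hippocampus or in prefrontal cortex, grey points did not pass, and bars are list medians. The immediate early genes (median -1.41) and olfactory bulb genes (median -1.88) lie mainly to the left, and the oligodendrocyte (median 1.25) and choroid plexus genes (median 5.43) to the right.

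Subunits and partners of glutamate receptors did not move together. AMPA receptors carry fast excitatory transmission and NMDA receptors gate plasticity, and auxiliary subunits set how AMPA receptors traffic and close. Of 18 genes of both, 7 were higher in hippocampus and 8 in prefrontal cortex. Gria1, the GluA1 subunit, lay between 967 and 1199.7 CPM (median 1069) in hippocampus and between 364 and 442 CPM (median 407) in prefrontal cortex (log2 difference 1.41, SE 0.04, edgeR adjusted p = 2.54e-19). Gria3 and Gria4 were 1.44-fold and 1.81-fold higher in prefrontal cortex. The auxiliary subunit Shisa6 lay between 149.9 and 224 CPM (median 196) in hippocampus and between 10.9 and 18.6 CPM (median 12.8) in prefrontal cortex, a 14.4-fold difference (log2 3.85, SE 0.10). Cornichon 2 (Cnih2) and gamma-8 (Cacng8), which also bind AMPA receptors, were 2.06-fold and 2.10-fold higher in hippocampus, whereas gamma-3 (Cacng3) was 2.96-fold higher in prefrontal cortex. None of these 7 genes overlapped between the regions. Among NMDA receptor genes, the difference was 0.65 (SE 0.06) for Grin2a, 0.40 (SE 0.08) for Grin2b and -0.20 (SE 0.03) for the obligatory subunit Grin1, and the latter pair overlapped.

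For kainate and metabotropic glutamate receptors the split was 6 against 6 of 14. Grik4, a kainate receptor subunit of CA3, was 2.28-fold higher in hippocampus (57.96 to 85.7 CPM, median 71.6, against 29.6 to 33.96 CPM, median 31.6), and Neto1, an auxiliary subunit of kainate receptors, 1.79-fold higher. The presynaptic receptor Grm8 was 3.12-fold higher in prefrontal cortex (28.9 to 36.3 CPM, median 32.4, against 7.53 to 13.7 CPM, median 10.6, in hippocampus), as were Grm3 at 1.80-fold and Grm2 at 1.58-fold. Of 16 GABA receptor genes, 9 were higher in prefrontal cortex and 5 in hippocampus, and the alpha subunits diverged. Gabra5, the subunit of extrasynaptic receptors that hippocampal pyramidal cells use, lay between 149 and 225 CPM (median 203) in hippocampus and between 71.3 and 87.01 CPM (median 77.2) in prefrontal cortex (log2 difference 1.31, SE 0.06). Gabra2 was 1.73-fold higher in hippocampus, while Gabra3 was 2.52-fold higher in prefrontal cortex. Gabrd, the delta subunit, was 2.30-fold higher in prefrontal cortex, also without overlap.

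Of 42 potassium, HCN and sodium channel genes, 20 were higher in prefrontal cortex and 13 in hippocampus (median difference -0.10). Kcnh7 and Kcnh3, potassium channel genes of the ether-a-go-go family, were on the cortical side. Kcnh7 was 2.97-fold and Kcnh3 2.35-fold higher in prefrontal cortex, Kcnh3 lying between 189 and 227 CPM (median 201) there and between 81.6 and 96.7 CPM (median 85.2) in hippocampus. Kcnv1, a silent potassium channel subunit, was 2.82-fold higher. On the hippocampal side Scn3b, a sodium channel beta subunit, was 2.02-fold higher (229 to 297 CPM, median 257, against 116 to 140.1 CPM, median 129) and Kcnip2, a partner of A-type potassium channels, 1.85-fold higher.

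Receptors for monoamines and acetylcholine were divided, with 17 of 33 higher in hippocampus and 13 in prefrontal cortex. Among serotonin receptors, Htr4 lay between 13.1 and 21.05 CPM (median 17.4) in hippocampus and between 0.747 and 1.33 CPM (median 1.07) in prefrontal cortex, 15.6-fold higher in the former (log2 difference 3.96, SE 0.10, edgeR adjusted p = 1.86e-19). Htr5b was 5.09-fold higher in hippocampus. Htr2c, which the choroid plexus also expresses, was 2.47-fold higher there (log2 difference 1.30, SE 0.13). It was lowest in hippocampus replicates 6 and 7, which held little choroid plexus RNA, at 37.2 and 44.2 CPM against 49.8 to 84.8 CPM in the other 8 and 21.9 to 31.7 CPM in prefrontal cortex. With these 2 as the sole hippocampus libraries its difference was 0.65 (edgeR adjusted p = 0.000155). Htr2a, the receptor on which serotonergic hallucinogens act, lay between 25.6 and 35.5 CPM (median 27.5) in prefrontal cortex and between 7.72 and 10.6 CPM (median 8.60) in hippocampus (log2 difference -1.72, SE 0.08). The adrenergic receptor Adrb1 was 2.45-fold higher in prefrontal cortex, the same direction as Adra1b above. Of the dopamine receptors, Drd5 was 4.02-fold higher in hippocampus (11.4 to 16.1 CPM, median 13.05, against 2.44 to 4.26 CPM, median 3.34), whereas Drd4 was lower there (-2.13, SE 0.25) at 0.0193 to 0.174 CPM (median 0.0849) against 0.237 to 0.776 CPM (median 0.423). Drd2 was 3.59-fold higher in hippocampus and is a striatal and mossy cell gene treated below. Chrna7, the alpha-7 nicotinic subunit, was 2.45-fold higher in hippocampus, and the muscarinic receptor Chrm5 lay between 1.90 and 4.05 CPM (median 3.11) there and between 0.0259 and 0.389 CPM (median 0.141) in prefrontal cortex.

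Neuropeptide genes were higher in prefrontal cortex for 11 of 20 (55%) and in hippocampus for 5. Adcyap1, which encodes the peptide PACAP, lay between 37.4 and 54.6 CPM (median 41.6) in prefrontal cortex and between 5.01 and 9.59 CPM (median 7.85) in hippocampus (log2 difference -2.50, SE 0.10). Crh, the corticotropin-releasing hormone, was 3.82-fold higher in prefrontal cortex. Nts, which encodes neurotensin, was the largest in the other direction at 16.6-fold (3.67 to 11.1 CPM, median 8.40, in hippocampus, 0.327 to 0.651 CPM, median 0.431, in prefrontal cortex). The receptors were less one-sided, with 14 of 29 higher in hippocampus and 9 in prefrontal cortex. Npy2r, a presynaptic receptor for neuropeptide Y, lay between 44.7 and 74.5 CPM (median 57.5) in hippocampus and between 2.21 and 4.15 CPM (median 3.09) in prefrontal cortex, 17.7-fold higher in the former, while Npy itself was higher in the latter. Tacr3, the neurokinin B receptor, was 6.27-fold and Trhr, the thyrotropin-releasing hormone receptor, 2.34-fold higher in hippocampus. Cckbr, the main cholecystokinin receptor of the brain, lay between 71.7 and 99.9 CPM (median 81.96) in prefrontal cortex and between 7.46 and 16.4 CPM (median 11.5) in hippocampus (log2 difference -2.84, SE 0.11). Crhr1, the receptor for Crh, was 3.41-fold higher in prefrontal cortex, in the same direction as its ligand.

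Genes of steroid and glucocorticoid signalling included the gene pair of the 2 corticosteroid receptors, which differed in opposite directions. Nr3c2, the mineralocorticoid receptor that binds corticosterone at resting levels, lay between 162 and 244 CPM (median 194) in hippocampus and between 30.7 and 37.99 CPM (median 33.9) in prefrontal cortex (log2 difference 2.49, SE 0.07, edgeR adjusted p = 4.41e-19). Nr3c1, the glucocorticoid receptor, was 1.18-fold higher in prefrontal cortex with overlap (log2 difference -0.24, SE 0.05). Fkbp5, a chaperone of these receptors and one of their targets, was 2.45-fold higher in hippocampus, and Hsd11b1, the enzyme that regenerates active glucocorticoid, 2.14-fold higher, neither with overlap. Thrb, a thyroid hormone receptor, was 2.21-fold higher in prefrontal cortex. Over the whole list 8 of 20 were higher in hippocampus and 7 in prefrontal cortex, shares near those of all genes.

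Axon guidance and adhesion genes, which wire circuits in development and persist in adult neurons, were higher in hippocampus for 27 of 47 (57.4%) and in prefrontal cortex for 17. In 31 of them the libraries did not overlap, against 28.4% of all genes. Pcdh20, a protocadherin, lay between 116 and 198 CPM (median 161) in hippocampus and between 17.1 and 31.4 CPM (median 25.1) in prefrontal cortex (log2 difference 2.68, SE 0.11). The semaphorin coreceptors Nrp1 and Nrp2 were 4.14-fold and 3.11-fold higher in hippocampus, while Sema3a, the ligand of Nrp1, was 5.68-fold higher in prefrontal cortex (25.1 to 34.7 CPM, median 30.2, against 3.58 to 8.65 CPM, median 4.66, in hippocampus). Slit1, a secreted repellent, was 4.02-fold higher in hippocampus and Sema5a 3.28-fold higher. Of the ephrin system, the receptor Epha6 was 3.65-fold higher in hippocampus, and the receptor Ephb6 and the ligand Efna5 were 2.96-fold and 3.81-fold higher in prefrontal cortex. None of the genes named here overlapped between the regions.

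Latrophilins are adhesion receptors on neurons that bind teneurins and FLRT proteins across the synapse, and FLRT proteins also bind Unc5 receptors. All 3 neuronal latrophilins were higher in prefrontal cortex. Adgrl3, the gene altered in the KO mice (GRCm38 chromosome 5, 81020138 to 81825133, plus strand; ENSMUSG00000037605.16), lay between 117 and 133 CPM (median 127) in hippocampus and between 127 and 174 CPM (median 152) in prefrontal cortex, 1.20-fold higher in the latter with overlap (log2 difference -0.26, SE 0.05, edgeR adjusted p = 7.62e-05). Adgrl2 was 1.99-fold higher in prefrontal cortex (81.4 to 98.3 CPM, median 88.6, against 34.4 to 60.1 CPM, median 44.8) and Adgrl1 1.46-fold higher, both without overlap. The partners Flrt2 and Flrt1 were 1.97-fold and 2.11-fold higher in prefrontal cortex, while the teneurin Tenm3 was 2.25-fold and the netrin receptor Unc5c 2.17-fold higher in hippocampus. Of 18 genes on the list, 8 were higher in hippocampus and 9 in prefrontal cortex. Among the C1q-like and cerebellin proteins, which bridge pre- and postsynaptic receptors, C1ql2 was the hippocampal extreme and Cbln2 the cortical one. Cbln2 lay between 51.04 and 74.8 CPM (median 58.8) in prefrontal cortex and between 7.23 and 17.2 CPM (median 10.9) in hippocampus (log2 difference -2.48, SE 0.12), and C1ql3 was 1.49-fold higher in prefrontal cortex.

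Oligodendrocyte genes were the most uniform of the glial lists, with all 15 measured members higher in hippocampus, in all 10 pairs each and without overlap of libraries (median difference 1.25). Oligodendrocytes wrap axons in myelin, and the fimbria and alveus are white matter of the hippocampus. The myelin gene Mbp lay between 1024 and 1784 CPM (median 1293) in hippocampus and between 494 and 698 CPM (median 647) in prefrontal cortex. It was 2.17-fold higher in hippocampus, Mobp 2.49-fold, Mog 2.47-fold and Ermn 2.66-fold higher. The count of 15 was the same in each of the 5 reduced sets of libraries tried on the lists and with the replicate block. Of 11 precursor genes 8 were higher in hippocampus at smaller differences (median 0.29), Enpp6, which marks newly forming oligodendrocytes, being 1.98-fold higher.

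Astrocyte genes were higher in hippocampus for 10 of 20 and in prefrontal cortex for 3, with a median near that of all genes (0.09). Gfap, the intermediate filament of astrocytes, lay between 257 and 342 CPM (median 272) in hippocampus and between 56.1 and 104 CPM (median 78.5) in prefrontal cortex (log2 difference 1.80, SE 0.08). Agt, angiotensinogen, was 5.36-fold higher in hippocampus. Aqp4, the water channel, was 1.33-fold higher in hippocampus with overlap, and Aldh1l1, a folate enzyme used as a general astrocyte marker, 1.36-fold higher in prefrontal cortex.

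Microglial, endothelial, and mural and meningeal genes were more often higher in prefrontal cortex. Of 15 microglial genes 10 were higher in prefrontal cortex and 0 in hippocampus (median -0.22). Csf1r, the receptor that microglia need to survive, was 1.24-fold and C1qa, a complement subunit, 1.18-fold higher. Of 12 endothelial genes 7 were higher in prefrontal cortex, for example Cdh5, the cadherin of endothelial junctions, at 1.36-fold. Mural and meningeal genes were higher in prefrontal cortex for 10 of 16, 4 of them at 2-fold or more, including the collagen gene Col1a2 at 2.68-fold and the retinoic acid enzyme Aldh1a2 at 2.99-fold, both with overlap through hippocampus replicate 2. Dcn, the proteoglycan decorin, went the other way (19.3 to 67.3 CPM, median 47.8, in hippocampus, 5.32 to 14.6 CPM, median 10.5, in prefrontal cortex). All 5 erythrocyte genes were higher in prefrontal cortex (median -0.79), with Alas2, the haem synthesis enzyme of red cells, at 1.73-fold. Every one overlapped. With prefrontal cortex replicates 4 and 7 as the sole prefrontal libraries 1 of 6 measured passed (median -0.40). With hippocampus replicates 6 and 7 as the sole hippocampus libraries 0 of 6 did (median -0.67). Each of these sets holds 8 fewer libraries. The haemoglobin genes on that list have near-identical copies, so their counts are uncertain. Blood left in the tissue was not measured apart from these genes, and its part was not tested.

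Genes of tissue that borders the regions were among the largest differences. All 15 choroid plexus genes passed as higher in hippocampus (median difference 5.43), and 14 with the replicate block (median 5.36). Ttr, the thyroxine carrier that the choroid plexus secretes, had lowest, median and highest levels of 25.8, 1373 and 2457 CPM in hippocampus and 0.275, 1.84 and 16.1 CPM in prefrontal cortex (log2 difference 8.55, SE 0.93, edgeR adjusted p = 1.32e-07). The hippocampus libraries thus spanned a wide range, and replicates 6 and 7, at 25.8 and 48.8 CPM, were the lowest for all 15 genes on the list. Tmem72 lay between 0.316 and 22.04 CPM (median 13.4) in hippocampus and between 0.0203 and 0.151 CPM (median 0.0707) in prefrontal cortex, and Clic6, an intracellular chloride channel protein, between 1.46 and 57.1 CPM (median 30.1) against 0.183 to 0.804 CPM (median 0.530). The differences were 6.69 (SE 0.78) for Kcne2, a potassium channel subunit, 6.63 (SE 0.73) for the homeobox factor Otx2, 5.69 (SE 0.63) for the folate receptor Folr1 and 5.43 (SE 0.61) for the tight junction protein Cldn2. Kcne2 and Otx2 had no reads in some prefrontal cortex libraries and at most 0.260 and 0.257 CPM there. Their fitted differences thus rest on few reads in that region and depend in part on the prior count. Kl, the klotho gene, lay between 20.3 and 127 CPM (median 76.1) against 2.13 to 4.74 CPM (median 3.45). With replicates 6 and 7 as the sole hippocampus libraries, 12 choroid plexus genes were still higher in hippocampus and 3 were higher in prefrontal cortex, at a median of 2.13. Genes of ependymal cells, which line the ventricle with cilia, were higher in hippocampus for 11 of 12, for example Foxj1, the master factor of motile cilia, at 3.59-fold (6.01 to 15.9 CPM, median 12.5, against 2.22 to 3.83 CPM, median 3.25). In replicates 6 and 7 alone 8 of 12 were.

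The hippocampal side of the striatal list rested in part on 3 hippocampus libraries. Of 13 genes 6 were higher in hippocampus and 1 in prefrontal cortex, and without hippocampus replicates 1, 8 and 9 the counts were 4 and 6. Adora2a, the adenosine receptor of indirect-pathway striatal neurons, was at 16.5, 30.3 and 12.97 CPM in those libraries and at 1.48 to 6.66 CPM in the other 7, against 1.97 to 3.40 CPM in prefrontal cortex. Its difference was 1.72 (SE 0.50, edgeR adjusted p = 0.00518), and 0.39 (adjusted p = 0.199) without the 3 libraries. With all libraries, limma voom with quality weights gave 1.05 (adjusted p = 0.0962). In the wild-type striatum libraries it stood at 281 ± 32.95 CPM (SD, n = 10), with all 60 libraries scaled together. Drd2 was at 15.1 CPM in hippocampus replicate 8 and had a median of 2.97 CPM, above every prefrontal cortex library in each of the 10 hippocampus libraries. Its difference was 1.84 with all libraries and 1.06 without the 3. Of 22 listed genes of thalamus, hypothalamus and septum, 15 were measured. Of these, 10 were higher in hippocampus and 4 in prefrontal cortex. A gene can pass the filter on low counts through 1 region alone, so the measured members favour genes high in either region. Prkcd, a protein kinase C form of thalamic neurons, was 3.62-fold higher in hippocampus (13.03 to 43.3 CPM, median 18.4, against 4.999 to 6.48 CPM, median 6.02). The part of neighbouring tissue in the other differences was not tested.

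Olfactory bulb genes were higher in prefrontal cortex for 8 of 10 and in hippocampus for 1 (median -1.88). With the replicate block the counts were 6 and 1 (median -1.65), and in DESeq2 7 and 1 (median -1.66). Th, tyrosine hydroxylase, which makes dopamine in bulb interneurons and in midbrain axons, lay between 1.66 and 15.3 CPM (median 8.31) in prefrontal cortex and between 0.351 and 1.10 CPM (median 0.703) in hippocampus (log2 difference -3.56, SE 0.33). Its prefrontal values were lowest in replicates 4 and 7, at 3.15 and 1.66 CPM. Doc2g, a calcium-sensor protein of bulb projection neurons, lay between 1.73 and 30.8 CPM (median 15.1) in prefrontal cortex and between 0.922 and 2.11 CPM (median 1.22) in hippocampus, and it overlaps Nudt8 on the same strand, so the 2 share reads. Eomes lay between 0.233 and 9.81 CPM (median 4.79) in prefrontal cortex and between 0.443 and 1.09 CPM (median 0.630) in hippocampus (log2 difference -2.77, SE 0.44), and with replicates 4 and 7 as the sole prefrontal libraries the difference was 0.38 (adjusted p = 0.471). Cdhr1, a protocadherin-like protein of mitral cells, gave -1.26 (SE 0.35, edgeR adjusted p = 0.00346), -1.03 with the replicate block (adjusted p = 0.0570), -0.99 with limma voom (adjusted p = 0.0646) and 1.19 (adjusted p = 0.00172) with replicates 4 and 7 alone. Of the 8 genes that passed as higher in prefrontal cortex, replicates 4 and 7 were the 2 lowest prefrontal libraries for 7. With those 2 alone the list gave 3 genes higher in hippocampus and 3 in prefrontal cortex (median 0.42). Slc6a3, the dopamine transporter, rested on prefrontal cortex replicate 5, at 9.11 CPM against a median of 0.517 CPM. Its difference of -1.95 (adjusted p = 0.0154) was -0.66 without that library (adjusted p = 0.0877) and -1.16 with the replicate block (adjusted p = 0.121). It also missed the threshold in DESeq2 (-0.63, adjusted p = 0.0860) and limma voom (-1.06, adjusted p = 0.113).

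Mitochondrially encoded transcripts were lower in hippocampus for 11 of 13 and higher for 1, at a median of -0.21. They took 5.66% to 6.99% of the reads in hippocampus and 6.02% to 7.61% in prefrontal cortex. The difference was -0.14 (SE 0.03) for mt-Co1, a cytochrome oxidase subunit encoded on the heavy strand, and 0.46 (SE 0.13) for mt-Nd6, which was the member that went the other way and is the 1 protein gene of the light strand. All 13 overlapped between the regions. With hippocampus replicates 6 and 7 as the sole hippocampus libraries, a set with 8 fewer libraries, none passed, at a median of -0.17.

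The same comparison in the KO libraries, which share no library with the wild-type set, is given beside the wild-type values. Of 15470 genes tested, 799 (5.16%) passed at 2-fold or more as higher in hippocampus and 621 (4.01%) as higher in prefrontal cortex. Of the 842 genes called higher in wild-type hippocampus, 811 were measured in the KO libraries. There, 803 of them passed in the same direction, 701 at 2-fold or more and 0 had the opposite sign. The median difference was 1.51 in KO over the 811 genes and 1.55 in wild type over all 842. Of the 645 called higher in wild-type prefrontal cortex, 624 were measured, 605 passed in the same direction, 540 at 2-fold or more, and 3 had the opposite sign. These 3, named after their values were seen, were Slc6a3 (0.86 in KO, SE 0.25), Trh, the gene of thyrotropin-releasing hormone (-1.49 in wild type, 1.22 in KO, SE 0.45), and Cdhr1 (0.58 in KO, SE 0.39), all on the olfactory bulb list. On that list the KO libraries gave 4 genes higher in hippocampus and 3 in prefrontal cortex, of 9 measured in both genotypes, at a median of 0.58 against -1.81 in wild type. Immediate early genes were again higher in prefrontal cortex, for 17 of 21 (median -1.55), and all 15 oligodendrocyte genes were higher in KO hippocampus (median 0.92, against 1.25 in wild type). The markers differed by 6.24 for C1ql2, 3.93 for Fibcd1, -2.66 for Lamp5 and -1.98 for Cux2 in the KO libraries.

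**Figure D5:**
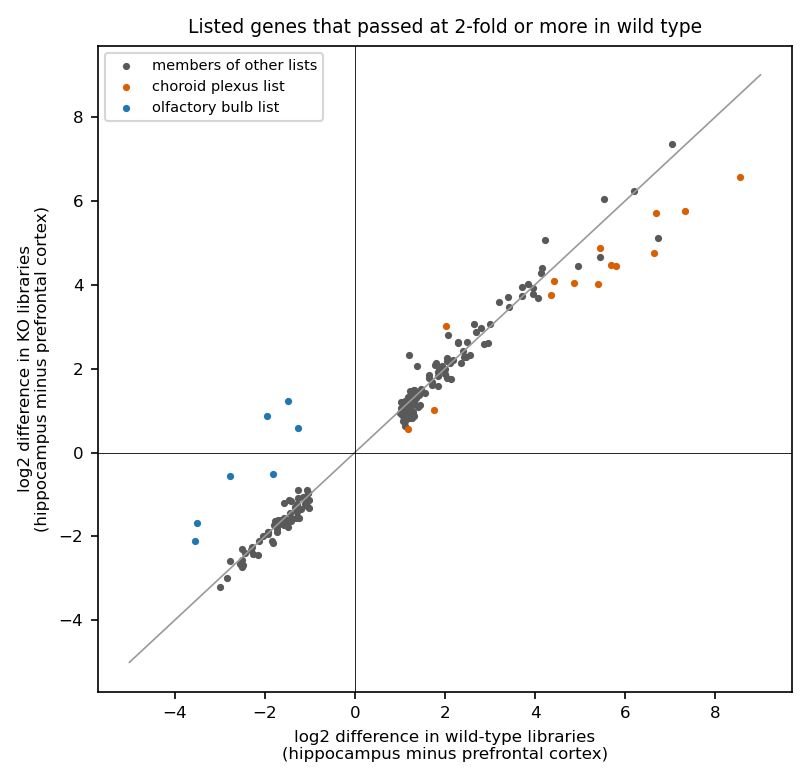
Difference between hippocampus and prefrontal cortex (log2) in the KO libraries against the same in the wild-type libraries, for 190 listed genes that passed at 2-fold or more in wild type and were measured in both; the grey line marks equal values. Of these genes 187 have the same sign in both genotypes, and the 3 that do not are on the olfactory bulb list (blue).

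Whether the regional difference itself depended on the genotype was tested with an interaction term over 40 libraries and 15894 genes. edgeR passed 0 genes, with 662 at an unadjusted p below 0.05, and 0 with the replicate block, with 1072 at that level. With no effect in any gene, a share of about 0.05 of the 15894 would reach that level. The count of 662 lies below that share and the count of 1072 above it. DESeq2 passed 3 genes, with 681 at that level. These were Slc9a4, a sodium/proton exchanger (KO minus wild-type difference 1.31, SE 0.25, DESeq2 adjusted p = 0.00213, edgeR 0.170), Kit (-0.39, SE 0.08, DESeq2 adjusted p = 0.00429, edgeR 0.123) and Scgn, the calcium binder secretagogin of bulb interneurons (2.34, SE 0.47, DESeq2 adjusted p = 0.00429, edgeR 0.123). Kit lies on chromosome 5, as does Adgrl3, and the part of sequence linked to the altered gene in its value was not tested. Scgn did not pass between the wild-type regions (-0.39, SE 0.31) and differed by 1.93 (SE 0.32) between the KO regions.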

How the data were processed

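Total RNA of 20 wild-type and 20 KO libraries was analysed from the deposited table of raw read counts, which holds 21950 protein-coding genes in 60 libraries. The striatum libraries entered only the fit of all 60 libraries and the levels scaled over all 60. Per the file headers, reads were counted over whole genes, introns included, and the build was GRCm38 per the submitters' notes. FastQC 0.11.4, cutadapt 1.16, STAR 2.5.2b, bedtools and DESeq2 1.16.1 are named in the submitters' processing notes, without roles, and the sources used here do not say how counting treated strand. No reads were counted for 265 genes, and 23 symbols stood on more than 1 gene and were kept apart by identifier. No column of per-sample values was left unmapped.

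Counts were tested with edgeR 4.0.16 in R 4.3.3 (TMM scaling, filterByExpr, robust quasi-likelihood F test, Benjamini-Hochberg adjustment over all genes tested, threshold 0.05), in a fit of the 20 wild-type libraries without a block. Alternatives used DESeq2 1.42.0, limma 3.58.1 (voom with quality weights), other scaling, other filters on low counts, a fit of all 60 libraries, a test against 2-fold (glmTreat), the replicate number as a block, each replicate left out in turn, and 4 reduced sets of libraries chosen after seeing the data. The edgeR step was run first on simulated counts of known differences. Figures were drawn with matplotlib 3.10.9.

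The named genes are the 4 markers, the 12 largest differences in each direction with at least 5 CPM in the higher region and no overlap, up to 6 members per list with the smallest p, and Adgrl3. A further 60 genes were named outside this rule, after their values were seen. The members, the 36 gene lists (586 distinct genes measured) and the tests were chosen with earlier results of these data known.

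Whether replicate numbers pair libraries across regions was checked from deviations from the region means over 13073 genes. Libraries of equal number correlated at 0.25 to 0.50 and those of unequal number at -0.30 to 0.23. All 10 hippocampus and all 10 prefrontal cortex libraries correlated best with their own number. Equal numbers were therefore treated as pairs in the counts of pairs and in the replicate block, although no label states it. The main fit did not use this pairing. It gave the SEs, adjusted p-values and list counts wherever no other setting is named. No 2 libraries of a region agreed within sampling noise, as chi-square per degree of freedom was 5.57 to 51.5 over the 45 pairs in each region. Library totals were 38985577 to 50641041 counted reads. Promoter sequences are RefSeq's on GRCm38.p6. Genes with overlapping neighbours on the same strand may share reads, for example Doc2g. Since the treatment of strand is not given, genes that overlap on the opposite strand may share reads as well, and these are not listed here. Results for some listed genes are counted with their lists and not reported here by name.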

Additional observations from a re-analysis of the deposited data

Results flagged for a closer look

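Single libraries stood apart for 32 of 386 groups of 10 values (8.29%), at a cutoff that sets apart about 1 in 20 groups of independent, normally distributed values. The values here are untransformed and come from genes that share the same libraries, some of them named after their values were seen. The 8.29% is therefore no test against chance. The values are in CPM, each with the nearest other library of its region. In prefrontal cortex replicate 6 there were 10 such values. Of the interneuron genes in that library, Vip was 62.2 (nearest 52.7), Npy 80.4 (67.2), Sst 199 (169) and Pvalb 34.8 (28.9). Gm11549 was 61.9 (46.8), Mpped1 345 (319) and Ttr 16.1 (6.21). Rasgrf2 at 152 (196), Chrna7 at 6.97 (10.2) and Flrt1 at 29.1 (35.3) were low there. In hippocampus replicate 6, Lamp5 was 57.2 (44.6), Vip 20.1 (16.8), Stard8 13.8 (10.7), Kcnip2 209.6 (178) and Cdhr1 16.4 (12.2). The cause was not tested.

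Other such values stood in hippocampus replicates 2, 7 and 8 and in prefrontal cortex replicates 1 and 5. In hippocampus replicate 8, Adora2a was 30.3 (16.5) and Drd2 15.1 (6.41). In hippocampus replicate 2, Prkcd was 43.3 (26.9), Col1a2 18.1 (11.3), Aldh1a2 9.09 (3.45) and Adra1b 7.21 (5.39). Doc2g was 2.11 (1.34) in hippocampus replicate 7. In prefrontal cortex replicate 5, Slc6a3 was 9.11 (1.12) and Agt 6.17 (4.81). In prefrontal cortex replicate 1, Otx2 was 0.257 (0.0709) and Camk2a 4019 (3463).

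The remaining values were spread over other libraries. Homer1 was 359.9 (268) in prefrontal cortex replicate 2. Gabrd was 69.4 (57.0) in prefrontal cortex replicate 7, and Adra1b 31.7 (36.7) in prefrontal cortex replicate 8. In hippocampus, Nr4a3 was 109 (92.5) in replicate 3, Epha6 117 (96.7) in replicate 4 and Gfap 342 (290.2) in replicate 5.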

How the results depend on the processing

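Against 842 and 645 genes called at 2-fold or more (higher in hippocampus and in prefrontal cortex), the counts were 1303 and 977 with no filter on low counts, 578 and 486 with at least 1 CPM in 10 libraries, and 561 and 399 when tested against 2-fold itself. Leaving out each replicate number in turn gave 807 to 860 and 626 to 653 such genes, and 5249 to 5534 and 4975 to 5150 that passed at any size, against 5467 and 5158. With hippocampus replicates 6 and 7 as the sole hippocampus libraries 3521 and 3426 passed, a set with 8 fewer libraries. DESeq2 shared 835 of the 842 and 643 of the 645. With the replicate block, in which equal numbers are paired, 5720 and 5363 genes passed, 835 and 650 at 2-fold or more. Among the 193 genes named, the block ended the call for Cdhr1 (-1.03, adjusted p = 0.0570) and Slc6a3 (-1.16, adjusted p = 0.121) and changed no other. Calls were also lost in limma voom (those 2 and Adora2a), in DESeq2 (Slc6a3) and in the fit of all 60 libraries (Calb2). The interaction passed 0 genes in edgeR, 0 with the replicate block and 3 in DESeq2. The KO libraries gave 1236 to 1241 of the wild-type calls at 2-fold under the 4 settings tried.

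Of the 193 genes, 165 kept direction and call under every setting. With prefrontal cortex replicates 4 and 7 as the sole prefrontal libraries, Eomes (0.38, adjusted p = 0.471), Cdhr1 (1.19, 0.00172), Slc6a3 (0.57, 0.415) and Trh (0.47, 0.680) turned to the hippocampal side; 11 more lost their call and 3 gained one. With hippocampus replicates 6 and 7 alone, Adora2a turned to -0.49 (0.0677) and Gad2 to -0.047 (0.571), and 19 more lost theirs. The cause was not tested. For genes without reads in some libraries, such as Kcne2 and Otx2, the size of the difference rests on few reads and is uncertain.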
